A study of Bos taurus with 6 samples.

Results

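Constitutively unmethylated CpG-dense windows are stretches of 1000 bp, on a fixed grid over the 29 autosomes, that hold many CpG cytosines and read almost free of DNA methylation in every blood library that measured them. A window was kept if at least 60 distinct CpG cytosines were covered in any library (each strand counted apart), if at least 2 libraries of each group measured it, and if methylated calls made up under 10% of all calls in every measuring library. A library measured a window with at least 3 covered cytosines and 10 calls, a call being the methylated or unmethylated state of a cytosine in a read. The rule kept 2903 windows, called members here, of 409025 windows with a covered cytosine. They were 33.9% of the 8557 windows that met the density and measurement conditions, which are called CpG-dense windows below.

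Reduced representation bisulfite sequencing, which reads the CpG-rich share of the genome next to restriction sites, was run on blood DNA of 6 adult males, 1 library for each animal. Creole 1 was a Sanmartinero, and Creole 2 and 3 were both Costeno con Cuernos. Spanish 1 was a Retinta, Spanish 2 an Asturiana de los Valles and Spanish 3 of the Lidia breed. The series asks how methylation in Creole cattle, adapted to the tropics, differs from that in the Iberian breeds they descend from. Creole DNA was extracted with the UltraClean BloodSpin kit and Spanish DNA with a QIAamp kit, and the libraries of each group carried a lane mark of their own. Effects of breed group, extraction and lane therefore cannot be told apart, and breed differs within both groups. Blood is a mixture of leukocyte types, so a level is an average over cells, and a change in some cells cannot be told apart from a change in their share.

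In mammals most CpGs are methylated, and the methylated cytosine is lost over evolution by deamination. CpG islands are the exception: short CpG-rich stretches, often at gene starts, that are kept free of methylation in most tissues. The strips on either side, called shores, are where methylation returns and where tissues tend to differ most. In bisulfite data an unmethylated cytosine that escapes conversion reads as methylated, so the low level in such windows holds true methylation and failed conversion together.

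The level itself was used to choose the members and is given as a description. In the highest library of each window, 1199 members (41.3%) stayed under 1%, and 38 read 0% in every measuring library, while 553 reached 5% or more. Of the members, 1261 were measured in all 6 libraries, 1308 in 5 and 334 in 4. The threshold cut through a continuum: 81 members had a highest library between 9 and 10%, and 84 CpG-dense windows lay between 10 and 11%. The 3 members nearest the ceiling reached 9.98%, 9.97% and 9.96% in a single library (chromosome 15, 24916001 to 24917000 and 64678001 to 64679000, and chromosome 5, 28199001 to 28200000, build UMD3.1, which applies to all positions). The 3 windows nearest outside it reached 10% in a single library (chromosome 3, 100338001 to 100339000, chromosome 6, 99588001 to 99589000, and chromosome 7, 39980001 to 39981000). At the density limit, 237 members held 60 to 62 cytosines, and 245 windows of 57 to 59 cytosines also stayed under 10%.

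Over the 1261 members measured in all 6 libraries, mean methylation was 1.65%, 0.548% and 0.388% for Creole 1, 2 and 3. The values for Spanish 1, 2 and 3 were 0.513%, 0.630% and 0.424%. Creole 1 stood apart, and the other 5 libraries lay close together. The Creole mean of 0.863% ± 0.688 (SD, n = 3) became 0.468% ± 0.113 (SD, n = 2) without Creole 1, beside a Spanish mean of 0.522% ± 0.103 (SD, n = 3).

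Creole 1 had the highest level in 785 of these 1261 windows, and each other library in 64 to 123. In Creole 1 only 5.07% of its measured members read exactly 0%, against 58.9% to 70.7% in the other libraries. Creole 1 also covered more of each member, with a median of 58 cytosines against 16 to 35, and its median of 15.3 calls per cytosine lay near the low end of the range over libraries, 14.98 to 46.6. The gap was also present at the same cytosines: where both Creole 1 and Spanish 2 had 10 or more calls (33568 cytosines), Creole 1 read 1.63% and Spanish 2 read 0.639%. Beside the other 4 libraries, at 9494 to 21647 shared cytosines, Creole 1 read 1.53% to 1.88% and the other library 0.504% to 0.596%.

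**Figure D1:**
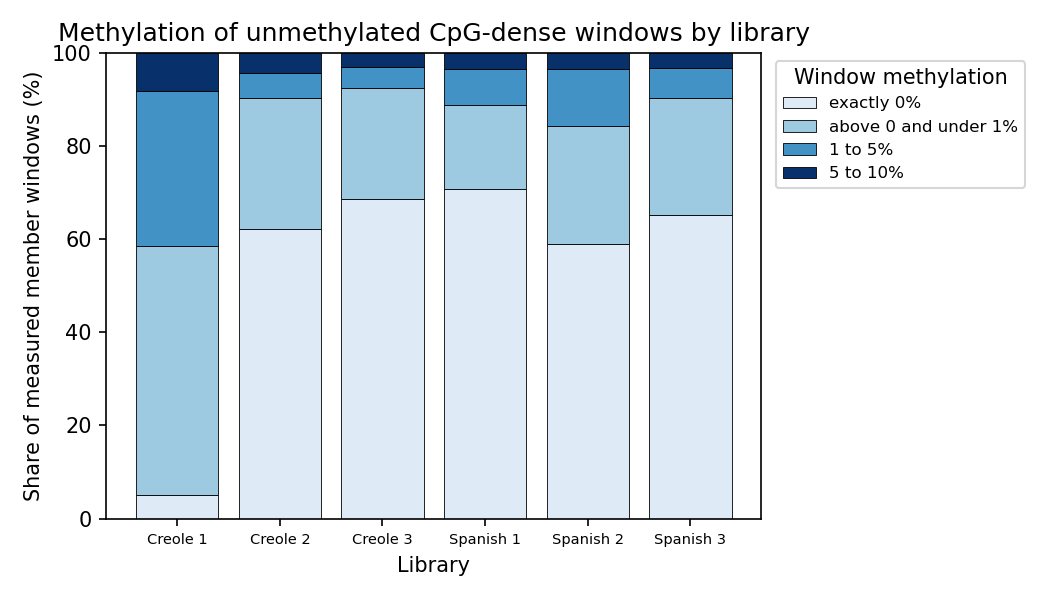
Share of measured member windows (vertical axis, percent) in 4 classes of methylation, for each library. In Creole 1 only 5.07% of members sit at exactly 0%, against 58.9% to 70.7% in the others, and 8.18% of its members lie between 5 and 10%.

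Methylated calls inside members were not spread evenly over cytosines. In 5 libraries, 67.8% to 90.8% of the methylated calls at cytosines with 10 or more calls came from the few cytosines that read over 50%, which were 0.374% to 0.664% of those cytosines. In Creole 1 such cytosines were 0.801% and carried 31.9% of the methylated calls, so most of its methylated calls lay at cytosines that read 50% or less. Fully unmethylated cytosines made up 89.2% of the cytosines in Creole 1 and 95.4% to 98.0% in the others.

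Inside members, the methylated single cytosines were seldom shared between animals. The ceiling works against shared ones, since such a cytosine raises its window in every library that holds it. Windows outside the members were not counted, so nothing is read about sharing elsewhere. Of 248707 cytosines in members, 1886 read over 50% in at least 1 library, in 1045 members (36.0%). Among these, 1191 had 10 or more calls in at least 2 libraries. In 1173 of them (98.5%) another library read 50% or less at the same base, and 1712 of 1898 such library values were exactly 0%. Only 18 read over 50% in every library with 10 or more calls. In Creole 1, 52.3% of its cytosines over 50% had another within 100 bp, against 2.60% to 36.4% in the other libraries. Creole 1 also had more of them, 794 among 99183 cytosines with 10 or more calls, against 77 to 407 among 20607 to 77277. The share with another nearby rises with such numbers, and another can be the opposite strand of the same CpG, so nothing is read from this difference. Reads were not marked by molecule, so 10 calls can stem from fewer molecules.

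A library that took no part in the choice gives an independent reading. Windows were chosen again 6 times on 5 libraries, with density and measurement also taken from those 5 (at least 1 measuring library in the group that lost an animal), and then read in the left-out animal. The chosen windows that read under 10% made up 88.5%, 95.6% and 94.97% for Creole 1, 2 and 3, and 96.5%, 98.3% and 97.4% for Spanish 1, 2 and 3. Among the other CpG-dense windows the shares were 15.3%, 25.1%, 23.1%, 28.2%, 31.8% and 33.0% in the same order. The lowest share among chosen windows lay far above the highest among the others. The mean share was 95.2% ± 3.53 for chosen windows and 26.1% ± 6.501 for the others (SD, n = 6 libraries). The difference was 69.1 points ± 3.34 (exact two-sided sign-flip permutation test over libraries, p = 0.031, the smallest that 6 libraries allow). The other windows had reached 10% or more in at least 1 of the 5 libraries, so both sets were chosen by level. Any level that repeats between animals puts all 6 differences on the same side, so the p adds nothing to the shares.

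Reversals were rare. Chosen windows that read 70% or more in the left-out animal numbered 2 of 1871, 6 of 2539 and 6 of 2126 for Creole 1, 2 and 3, and 4 of 2459, 1 of 2521 and 0 of 2373 for Spanish 1, 2 and 3. The choices overlap in their libraries, so the 6 readings are not fully independent of each other.

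**Figure D2:**
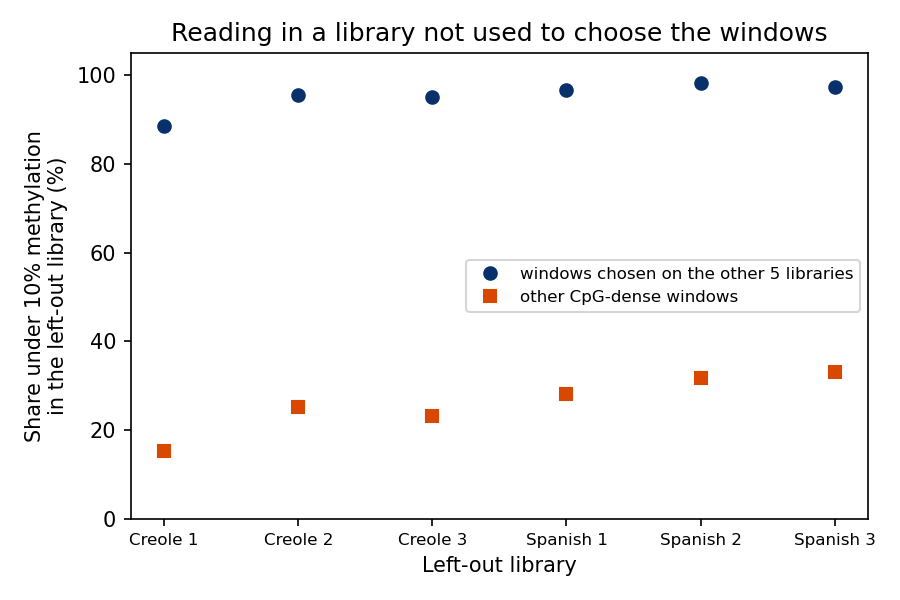
Share of windows (vertical axis, percent) that read under 10% in a left-out library (horizontal axis), for windows chosen on the other 5 libraries (circles) and for the other CpG-dense windows (squares). Circles lie at 88.5% to 98.3% and squares at 15.3% to 33.0%.

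A single animal kept many further windows out. Of the CpG-dense windows, 854 had exactly 1 library at 10% or more, and in 416 of these it was Creole 1, where their median level was 18.9%. Creole 2 alone kept out 117 windows and Creole 3 alone 114, against 89, 51 and 67 for Spanish 1, 2 and 3. The libraries did not measure equally many windows: among members, Creole 1 measured 2899 and the others 2092 to 2835. A library that measures more windows has more chances to keep one out, so these counts are not shares of the windows measured. At the other end, 1788 CpG-dense windows were at 10% or more in all 6 libraries.

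Unmethylated windows became more frequent with density. Members made up 25.1% of CpG-dense windows with 60 to 69 cytosines, 33.0% with 70 to 79, 37.8% with 80 to 99, 47.3% in the next class, and 51.2% with 120 to 213. Methylated CpG-dense windows, defined as those over 70% in every measuring library (1537 windows), ran the other way, from 23.7% to 8.70% over the same classes. Members had a median density of 80 cytosines and methylated windows of 71. Density counts only covered cytosines, so it rises with coverage as well as with CpG content.

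The 5 densest members held 172 to 189 cytosines. The densest of all, on chromosome 5 (51209001 to 51210000), read 0.509%, 0.0268% and 0% in Creole 1 to 3 and 0%, 0% and 0.0604% in Spanish 1 to 3. The next, on the same chromosome (28199001 to 28200000), reached 9.96% in Creole 1, while Spanish 2 had 3.64% and Creole 3, Spanish 1 and Spanish 3 had 0%, the last from 48 calls. High density went with near-zero levels in every library of the first window and not of the second.

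Position along the chromosome, which the rule did not use, separated unmethylated from methylated CpG-dense windows. Cattle autosomes are acrocentric, and chromosome coordinates run from the centromere to the distal telomere. Within 5 Mb of the last covered base lay 278 of the 2903 members (9.58%), 778 of the 1537 methylated CpG-dense windows (50.6%) and 14.3% of all windows. The share was lower for members than for methylated windows on 28 of 29 chromosomes, chromosome 14 being the exception with 3.85% and 3.77%. The median distance to the chromosome end was 33.9 Mb for members and 4.81 Mb for methylated windows. In the first 5 Mb, at the centromeric end, the shares were 6.17% and 8.72%.

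Read the other way, members made up 12.8% of the CpG-dense windows in the last 1 Mb, 10.1% between 1 and 2 Mb and 16.2% between 2 and 5 Mb. From 5 Mb inward they made up 38.6% to 42.3%. The step was present within each of the 4 density classes compared: with 60 to 69 cytosines members were 7.49% of distal and 32.2% of other CpG-dense windows, and with 100 to 213 cytosines 30.6% and 53.1%. Neighbouring windows share a region and are not independent, and no test was made over windows. Without Creole 1 the share of members in the last 5 Mb was 9.74%, and that of methylated windows 47.8%.

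**Figure D3:**
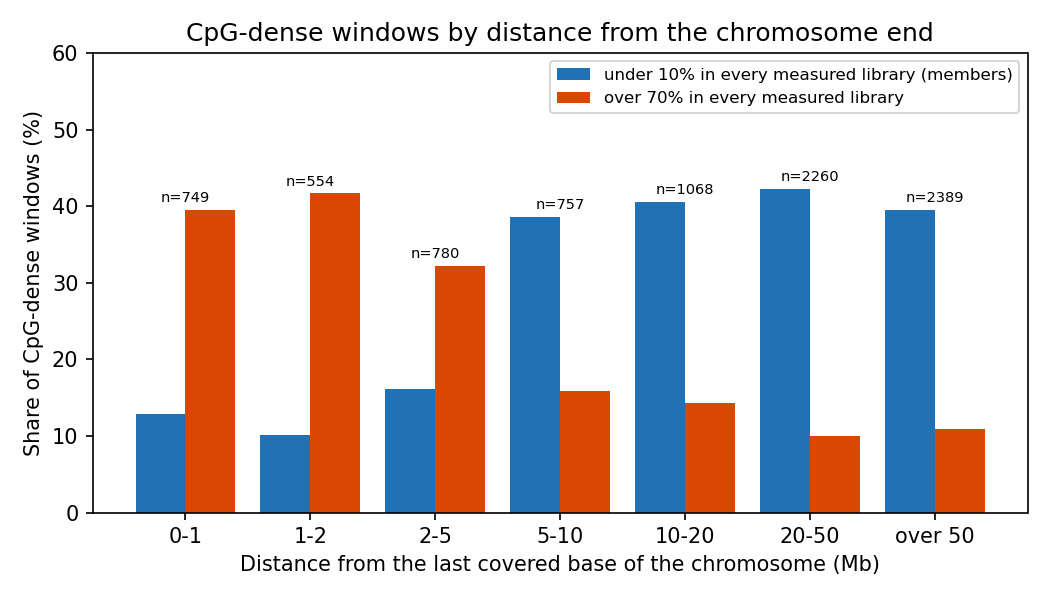
Share of CpG-dense windows (vertical axis, percent) that are members (blue) or methylated in every measuring library (orange), by distance in Mb from the last covered base of the chromosome; n is the number of CpG-dense windows in each class. Members fall from 38.6% at 5 to 10 Mb to 12.8% in the last 1 Mb.

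Chromosomes differed in the share of CpG-dense windows that were members. The highest shares were 47.1% on chromosome 10 (124 of 263) and 45.7% on chromosome 19 (195 of 427), and the lowest 24.4% on chromosome 21 (75 of 308) and 24.8% on chromosome 27 (27 of 109). On chromosome 21, 69.4% of the methylated CpG-dense windows lay in the last 5 Mb, against 18.5% on chromosome 19.

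Most members stood alone under the rule. A neighbour can fail the density or measurement conditions and still read low. Beside a member on chromosome 1 (148775001 to 148776000), windows of 21 and 16 cytosines read at most 0.368% where measured. Runs of adjacent members comprised 153 pairs, 7 runs of 3 windows and 2 runs of 4, while 2568 members had no member beside them. The 4-window run on chromosome 5 (106275001 to 106279000) read at most 1.08% in Creole 1 and at most 3.44% in Spanish 1. The 4-window run on chromosome 11 (25585001 to 25589000) read 0 to 0.0944% outside Creole 1, while Creole 1 read 0.474% in its first window and 9% in its last.

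Methylation returned outside the members within a few kb. In the first 250 bp beyond the edge of a member or run, cytosines averaged 6.42%, 5.13% and 5.13% for Creole 1, 2 and 3, and 3.84%, 3.47% and 3.002% for Spanish 1, 2 and 3. From 751 to 1000 bp the libraries read 21.0% to 30.9%, and between 2001 and 2250 bp 39.6% to 48.4%. Beside methylated CpG-dense windows the first 250 bp read 79.5% to 84.1%, far above the flanks of members in every library.

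In whole windows the same gradient was seen. Windows adjacent to a member, and themselves neither member nor methylated CpG-dense window, read 13.1% ± 1.66 (SD, n = 6 libraries), rising to 38.7% ± 3.28 at 2 windows, 53.2% ± 2.21 at 3 and 58.0% ± 1.52 at 5. Windows adjacent to methylated CpG-dense windows read 78.3% ± 1.43. The difference of 65.2 points ± 2.37 was seen in 6 of 6 libraries (exact two-sided sign-flip permutation test, p = 0.031). It had narrowed to 12.7 points ± 1.16 at 5 windows, again in 6 of 6 libraries with the same p in the exact test, against an average of 59.5% to 63.5% over all measured windows of a library. The fixed grid cuts islands at arbitrary points, so an adjacent window can hold part of the same island.

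**Figure D4:**
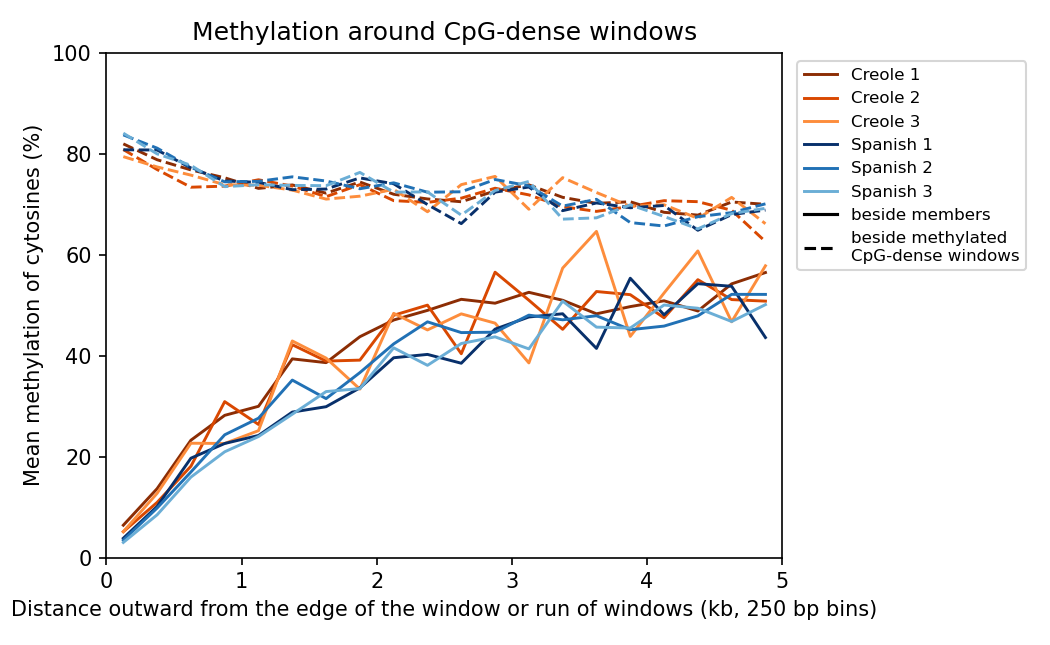
Mean methylation of cytosines with 10 or more calls (vertical axis, percent) by distance outward from members (solid lines) and from methylated CpG-dense windows (dashed lines), in 250 bp bins, for each library. The solid lines climb from 3.002% to 6.42% in the first bin to 43.6% to 57.8% in the last, and the dashed lines start at 79.5% to 84.1%.

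Beside members, Creole libraries read higher than Spanish libraries. Over the 285 adjacent windows measured in all 6 libraries, Creole 1, 2 and 3 read 15.5%, 14.1% and 15.3%, and Spanish 1, 2 and 3 read 11.7%, 11.5% and 11.8%. The groups did not overlap, and the difference of 3.31 points between 14.97% ± 0.782 and 11.7% ± 0.166 (SD, n = 3 each) had p = 0.10 in an exact two-sided permutation test, the smallest that 3 against 3 allows.

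At 2 windows the difference was 6.79 points over 92 windows, with Creole libraries at 30.1% to 35.4% and Spanish libraries at 24.8% to 26.9% (exact permutation p = 0.10). At 3 windows the libraries overlapped and the difference was 0.737 points (exact permutation p = 0.60), as at 4 windows (1.35 points, exact permutation p = 0.60), while at 5 windows it was 4.76 points without overlap (exact permutation p = 0.10). These distances were 5 looks at the same kind of difference, and no p at any of them can pass 0.05. Beside methylated CpG-dense windows it was -1.30 points in adjacent windows, with Creole lower (375 windows, exact permutation p = 0.10). The level beside members less that beside methylated CpG-dense windows was also taken in each library. There Creole exceeded Spanish by 4.60 points without overlap (exact permutation p = 0.10). The gap between the 2 kinds of flank was thus smaller in Creole. Without Creole 1 the difference beside members was 4.15 points, and over the 46 adjacent windows with enough cytosines shared by all 6 libraries it was 4.14 points. It was 2.14 points without Spanish 2 (exact permutation p = 0.20), 2.14 on the shifted grid and 2.08 with each library on its own windows (exact permutation p = 0.10 for both). The kit and lane marks that coincide with the groups apply to this difference too.

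Inside the members, the ceiling bounds any difference between groups over the whole window, and the counts below are descriptions. At cytosines shared by all 6 libraries a level can pass the ceiling. There a member on chromosome 19 (50579001 to 50580000) read 15.5% in Creole 1. By edgeR's quasi-likelihood test over all 4561 windows with enough shared cytosines, 0 of the 98 members tested passed at an adjusted p of 0.05, where 0% of all windows were called. Before adjustment, 10 members and 226 windows lay under 0.05. With edgeR's likelihood ratio test instead, 1 of the 98 members and 56 windows were called, and with limma 0 members and 1 window. Among the 98 members the median absolute difference between group means was 0.313 points, against 4.44 points over all tested windows. The member with the smallest p, on chromosome 15 (51035001 to 51036000), read 2.43%, 0% and 1.47% in Creole 1 to 3 and 0%, 0% and 0.0703% in Spanish 1 to 3 at shared cytosines (adjusted p = 0.468 by edgeR's quasi-likelihood test).

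Over all cytosines, the groups did not overlap in 83 of 1261 members with Creole higher (6.58%, against 5.43% of all 14764 windows measured in all 6 libraries) and in 7 with Spanish higher (0.555%, against 6.37%). Where Creole was higher the median difference was 1.73 points. The ceiling acts on these counts, and nothing is read from their difference to the background.

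Of the 10 members with the largest difference between group means, 8 had Creole above Spanish without overlap. On chromosome 3 (120606001 to 120607000) Creole 1, 2 and 3 read 7.16%, 7.61% and 9.09%, and all 3 Spanish libraries read 0%. The value of Creole 3 rests on 11 calls and that of Spanish 1 on 10. On chromosome 18 (26022001 to 26023000) Creole libraries read 6.36%, 9.79% and 5.96% from 403 to 2095 calls, and all 3 Spanish libraries 0% from 150 to 1229 calls. In the opposite direction, a member on chromosome 4 (72074001 to 72075000) read 8.23%, 8.92% and 7.35% in Spanish 1 to 3, 6.96% in Creole 1 and 0% in Creole 2 and 3. All 10 differences were between 5.59 and 7.95 points in size. These windows were picked for their differences, and in the fit over all covered cytosines the smallest adjusted p of any member was 0.620 by edgeR's quasi-likelihood test.

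Genes could be placed only where the authors' deposited table of differentially methylated regions gives a gene range. Of 247 genes with a range on the autosomes in the authors' deposited table, 19 had a member window at the start or end of the range. These genes were named after their values were seen, and they are genes listed near regions that differ between the groups, not a sample of all genes. Of the 494 range ends of all 247 genes, 21 lay in members, 5 in methylated CpG-dense windows and 47 in other CpG-dense windows. A further 280 lay in windows that were not CpG-dense or not measured enough, and 141 in windows without a covered cytosine. Over the autosomes, members were 33.9% of CpG-dense windows. The table does not give strand in a form used here, so a range end can be either end of the gene.

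At several of these genes the window was near 0% in every animal. A window at the start of H2AV_BOVIN, an entry name for a variant histone H2A, read 0.549%, 0.149% and 0% in Creole 1 to 3 and 0%, 0% and 0.0412% in Spanish 1 to 3 (chromosome 4, 77389001 to 77390000). At the end of the range of SNX13, a sorting nexin of endosomal trafficking, Creole 1, 2 and 3 read 0.839%, 0% and 0.0208% and Spanish 1, 2 and 3 read 0.156%, 0.909% and 0% (chromosome 4, 26448001 to 26449000). SLC19A1, the reduced folate carrier, read 1.18% in Creole 1, 0.132% in Spanish 1 and 0% in Creole 2, Creole 3 and Spanish 2 (chromosome 1, 147067001 to 147068000). At these 3 genes every library measured was under 2%.

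The window at the start of SOCS2_BOVIN, a suppressor of cytokine signalling that restrains the response to growth hormone, read 4.23% in Creole 3 from 25188 calls (chromosome 5, 23523001 to 23524000). The other measured libraries read 0.210% (Creole 1), 0.0879% (Spanish 2) and 0% (Spanish 1 and 3) there. BRAT1, a partner of the DNA damage kinase ATM, read 0.610% in Creole 1, 0.118% in Spanish 2 and 0% in Creole 3, Spanish 1 and Spanish 3 (chromosome 25, 41216001 to 41217000). IRF2BPL, a transcription regulator, read 0% in all 4 libraries that measured the window (chromosome 10, 89248001 to 89249000). The microRNA bta-mir-1281 lay whole within a member that read at most 1.28%, in Creole 1 (chromosome 5, 112802001 to 112803000).

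The highest levels among the 19 gene windows were at NLRP13 and ADAMTS7. NLRP13, of a family of intracellular innate immune receptors, read 7.60%, 3.57% and 8.42% in Creole 1 to 3 and 0%, 1.52% and 0% in Spanish 1 to 3 at the end of its range (chromosome 18, 63639001 to 63640000). ADAMTS7, a secreted metalloprotease, read 2.93%, 6.25% and 6.25% in Creole libraries and 0% in all 3 Spanish libraries (chromosome 21, 30835001 to 30836000). Calls at ADAMTS7 were only 16 in Creole 2, 32 in Creole 3 and 22 in Spanish 1. Over all 19 gene windows the highest library had a median of 0.909%, and 16 windows stayed under 2% in every measuring library.

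Of 316 autosomal regions in the authors' deposited table, 1 overlapped a member and 2 a methylated CpG-dense window. Members are 2903 of the 409025 windows, and nothing is read from a count this small. The region in a member is a 57 bp region on chromosome 26 (30439758 to 30439814), with no gene named, for which the authors' deposited table gives 71% in Creole and 10% in Spanish animals. Calls pooled within each library, a measure unlike these group means, gave 22.6% in the region for Creole 1 (261 calls). Creole 2, Spanish 2 and Spanish 3 read 0% in it (31, 217 and 425 calls). Over the whole window Creole 1 read 6.19%, Creole 2 0%, Spanish 2 0.216% and Spanish 3 0%, so the window passed the ceiling although Creole 1 was methylated in part of it.

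Some members lay in CpG islands that the authors' deposited table lists for its regions. Of 106 autosomal islands in the authors' deposited table, 11 held a member, and the 12 regions tied to them lay 12 to 2639 bp from it (median 1404 bp). The authors' deposited table places 8 of these 12 regions in the island itself and 4 outside it, in the shore (A0JNH7_BOVIN and F1MF18_BOVIN) or the more distant shelf (A6QLA8_BOVIN and BRAT1). Of these 12 regions, 11 were higher in Creole by the authors' deposited table. That table lists only islands near a region that differs, so nothing particular to members is read from this direction. In most of the 12 regions Creole 1 was the only Creole library with 10 or more calls. These were both regions of E1BAD4_BOVIN and those of SOCS2_BOVIN, IRF2BPL, E1BK14_BOVIN, A0JNH7_BOVIN and F1MF18_BOVIN.

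The shortest step was at E1BK14_BOVIN, where a region on chromosome 12 (90437932 to 90437989) ends 12 bp before a member. Creole 1 read 33.2% in the region, Spanish 1 8.06%, Spanish 2 0.151% and Spanish 3 0%. In the member itself Creole 1 read 0.499% and the other 5 libraries 0%. At H2AV_BOVIN the region 414 bp before the member read 33.0% in Creole 1 and 30% in Creole 2, against 0% in Spanish 1 and 0.395% in Spanish 2. The authors' deposited table gives higher levels in both groups: 53% in Creole and 13% in Spanish animals at E1BK14_BOVIN, and 89% and 12% at H2AV_BOVIN. It holds group means from a caller that is not given, while the values here are calls pooled within each library, so the measures differ.

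In the island of SOCS2_BOVIN, Creole 1 read 0.210% in the member and 32.0% in the window 2 kb further on, where Spanish 1 read 16.1%, Spanish 2 6.51% and Creole 2, Creole 3 and Spanish 3 0%. In the island listed for IRF2BPL, levels fell across 3 consecutive windows, from 71.2%, 93.7% and 1.15% in Creole 1 to 3 and 61.2%, 18.7% and 57.6% in Spanish 1 to 3, to 0% in every measuring library of the member.

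In the island listed for E1BAD4_BOVIN, the windows directly beside the member read at most 0.368% in the libraries that measured them. In the windows at a distance of 2, Creole 1 read 74.8% on one side and 54.8% on the other, and Creole 2 read 0% and 66.7%. There Spanish 1 read 0.158% and 0%, Spanish 2 18.1% and 22.8%, and Spanish 3 3.53% and 0%. The longest island, 17047 bp and listed for A5PJL3_BOVIN, held 3 members that read at most 1.85%. Windows between its members differed: those at 119816001 to 119818000 on chromosome 5 read 82.4% to 100% in all libraries that measured them. The window at 119814001 read 14.3% in Creole 1 and 35.7% in Spanish 1, and the window at 119818001 read 0% in Spanish 2, the only library that measured it.

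**Figure D5:**
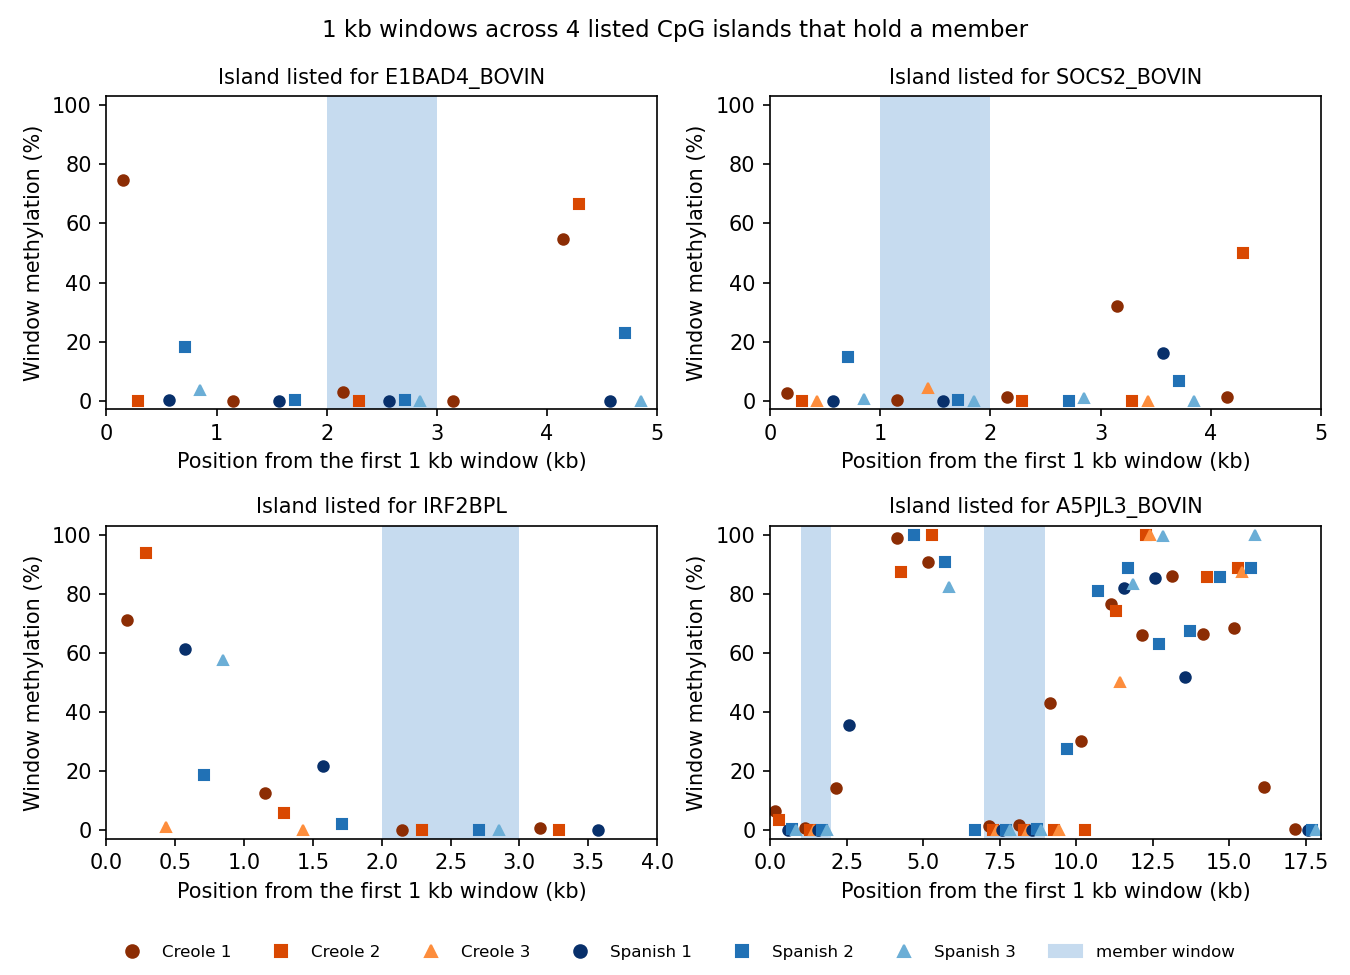
Methylation of 1 kb windows (vertical axis, percent; symbols are libraries, spread sideways within a window) by position in kb from the first window of 4 CpG islands listed in the authors' deposited table, with members shaded. Members sit at 0% to 4.23%. The highest window of each island, not adjacent to a member, reaches 50% to 100% in its highest library. The 50%, at SOCS2_BOVIN, rests on 20 calls in Creole 2.

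At the scale of single libraries, depth sets what can be read. Autosomal calls ranged from 38633007 in Spanish 1 to 80245850 in Creole 1, and a member had a median of 339 to 885 calls per library. Intervals were not computed, since calls of a window share reads.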

How the data were processed

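The deposited coverage files give, per the labels and the values themselves, raw counts of methylated and of unmethylated calls per CpG cytosine, with a percent column deposited beside them that equals methylated calls over all calls. The submitters' processing notes list Trim Galore, Bismark, methylKit and build UMD3.1. What each did, and with which settings, is not given in the sources used here, nor is the caller of the deposited regions. Per the file headers, the authors' table gives group means as a fraction (multiplied into percent here), the group difference, a score per region (not used), length and number of CpGs.

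Calls were summed in 1000 bp windows. The members, lists and comparisons were chosen with earlier results of these data known. The held-out and neighbour readings of the 6 libraries used exact permutation tests. The window test used edgeR 4.0.16 (quasi-likelihood F test, library effects, no dispersion trend, Benjamini-Hochberg adjustment over all windows, threshold 0.05) at cytosines covered in all 6 libraries, with limma 3.58.1 (2 added to each count) as an alternative, in R 4.3.3, and was tested on simulated data. Other steps ran in Python 3.11.15 with scipy 1.17.1, pandas 2.3.3, numpy 2.4.6 and, for plots, matplotlib 3.10.9.

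Named windows are the 5 longest runs (equal lengths in chromosome order), the 5 densest, the 10 with most calls (in all 6 libraries), the 3 nearest each side of the ceiling, the 10 largest group differences and any overlapping a deposited region. Of the 10 with most calls, 4 stayed under 2% in every library. Placing promoters by CpG spacing, and with it the 7 gene lists and the blood cell markers, needed promoter sequences and was not run, so the blood label was not checked against markers. Of the 19 genes named by range, 8 matched a RefSeq gene (ARS-UCD2.0, names only) on the same chromosome. The X chromosome and scaffolds were left out of the rule.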

Additional observations from a re-analysis of the deposited data

Results flagged for a closer look

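The X chromosome lies outside the rule, and 8 of its 162 CpG-dense windows (4.94%) read under 10% in every measuring library, while 25 read over 70% in every one. Their mean levels were 2.66%, 0.981% and 1.92% in Creole 1 to 3 and 1.73%, 0.796% and 0.0588% in Spanish 1 to 3. They are given because a signal appeared in data that no comparison above used.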

How the results depend on the processing

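The 2903 members became 4874 with a density of 40 or more, 1482 with 80 or more, and 1261 when all 3 libraries of each group had to measure a window. Leaving out 1 library gave 1212 to 2570 members. Density was then counted over the remaining libraries only, and both remaining libraries of the shortened group had to measure a window, which is a stricter rule. The lowest, 1212, was without Creole 1. These were 42.2% of the 2873 CpG-dense windows left, and 1085 of the 1212 were among the 2903. Ceilings of 5% and 20%, a shifted grid, 30 or more calls and, chosen after seeing the data, the higher strand of each CpG gave counts within 1.5 times; at the higher strand 2778 members (95.7%) kept their place.

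The held-out difference kept its direction under its 5 alternatives, at 67.3 to 75.7 points. Its p stayed at the floor for 6 libraries, where it must lie while all differences share a direction. The difference between the 2 kinds of flank lay at 64.7 to 66.3 points without each library in turn, where 5 libraries allow no exact p under 0.062. The Creole excess beside members kept its direction in all 12 alternatives, at 2.14 to 4.15 points without each library in turn. In the last 2 Mb lay 5.24% of members and 34.3% of methylated CpG-dense windows, and in the last 10 Mb 19.6% and 58.4%, both chosen after seeing the data. The window test called 0 of 4561 windows, the likelihood ratio test 56 (1 member) and limma 1; all other alternatives called 0. No paired analysis was possible because replicate numbers follow sample order and pair no animals.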
